A study of Mus musculus with 8 samples.

Results

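The Gadd45 family was described across 8 libraries of polyA-selected RNA from mouse B cell lines. Its members were the rows of the deposited gene counts table whose symbol is Gadd45a, Gadd45b or Gadd45g, 3 of 24054 rows that name a gene. All 3 passed the filter on low counts that kept 11291 genes for testing. The libraries came from 2 stable lines derived from WEHI-231, an immature B cell lymphoma line in which crosslinking of the B cell receptor leads to growth arrest and death. The WEHI-control line and the WEHI-miR-148a line were each sampled without stimulation and after receptor crosslinking with anti-IgM antibody at 2 ug/ml for 14 h, with 2 libraries in each of the 4 groups. All groups share the parent line and the culture medium. Whether a line is 1 clone or a pool is not given in the sources used here, nor is the vector. Gadd45a is known as a gene the study's authors pursued as a target of miR-148a.

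GADD45 proteins are small acidic proteins without enzyme activity that act by binding others. Stress, DNA damage or cytokines induce their genes, and the proteins bind the kinase MTK1 (gene Map3k4) upstream of p38 and JNK, the CDK1-cyclin B1 complex, the CDK inhibitor p21, and PCNA. Gadd45a is a classic target of p53 and of FOXO factors and is repressed by MYC. Gadd45b, first cloned as MyD118, is a target of NF-kB, and its product can block the JNK kinase kinase MKK7 (gene Map2k7). Gadd45g was cloned as the cytokine response gene CR6.

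The mature miR-148a-3p sequence is shown because the study concerns its targets. It belongs to a group of 3 of the 1738 mature mouse microRNAs in the RefSeq table (build GRCm38.p6) that share bases 2 to 8, the seed, printed in capitals.
miR-148a-3p: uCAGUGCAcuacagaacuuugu
miR-148b-3p: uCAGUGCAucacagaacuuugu
miR-152-3p: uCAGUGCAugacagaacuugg

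Matches to this seed were searched in the longest annotated 3' UTR of each member (GENCODE M21, GRCm38), on the transcript strand. A 7mer-m8 site is TGCACTG, an 8mer is TGCACTGA, and a 6mer is GCACTG. Gadd45a lies on the minus strand of chromosome 6 from 67035096 to 67037457, and its 3' UTR of 563 bases in exon 4 held 1 8mer starting at base 32 after the stop codon and 1 6mer at base 237. Gadd45g lies on the plus strand of chromosome 13 from 51846678 to 51848468, and its 3' UTR of 489 bases in exon 4 held 1 7mer-m8 site at base 396. Gadd45b lies on the plus strand of chromosome 10 from 80930073 to 80932204, and its 3' UTR of 558 bases held no match. Of 21663 genes with an annotated 3' UTR, 3.47% held an 8mer and 12.3% an 8mer or a 7mer-m8 site. The Gadd45a 8mer with the bases before it lies at chr6:67035620-67035641 on the minus strand, and the Gadd45g site at chr13:51848361-51848381 on the plus strand. The seed match is in capitals in each.
Gadd45a 8mer: taactgaaccaaatTGCACTGA
Gadd45g 7mer-m8: tggacttagccgacTGCACTG
A match is a description of the letters and does not show that a site is used.

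Promoters of the members, 250 bases before to 50 after the RefSeq start, were searched on both strands for 8 motifs chosen after the promoters were read, none of which overlaps another in these windows. Because of that choice, the shares over all promoters given here do not show that a match is unusual. A match does not show that a site is used either. The octamer ATGCAAAT, bound by POU factors, occurred 2 times in the Gadd45a promoter and 1 time in that of Gadd45g, and in 1.74% of 32851 mouse promoters. The E-box CACGTG, a motif of MYC-MAX and related factors, occurred 1 time each in Gadd45b and Gadd45g and in 7.15% of promoters. All 3 promoters held CCAAT (37.4% of promoters), and those of Gadd45b and Gadd45g held TATAAA (13.6%). None of the 3 windows held the forkhead core TGTTTAC, the cyclic AMP response element TGACGTCA or the AP-1 motif TGANTCA. These occurred in 3.65%, 1.79% and 7.81% of promoters. The kappaB motif was searched in 1 form only, which occurred in none of the 3 windows and in 1.47% of promoters. Other forms of it, and bases outside the windows, were not searched. The search therefore cannot show that Gadd45b or another member lacks a kappaB site. The windows around the octamer of Gadd45g, the gene that changed most below, and the pair in Gadd45a are shown with the motif in capitals. They lie at chr13:51846562-51846589 on the plus strand and at chr6:67037487-67037514 and chr6:67037460-67037487 on the minus strand. The Gadd45g E-box lies at chr13:51846523-51846548.
Gadd45g octamer: ctgccgcctcATTTGCATcagaaagcgg
Gadd45a octamer, distal: acgtctgctaATTTGCATaacccaatgg
Gadd45a octamer, proximal: gcctgactgcATGCAAATgaagctggac
Gadd45g E-box: cacccctcccCACGTGgccttctggc

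**Figure D1:**
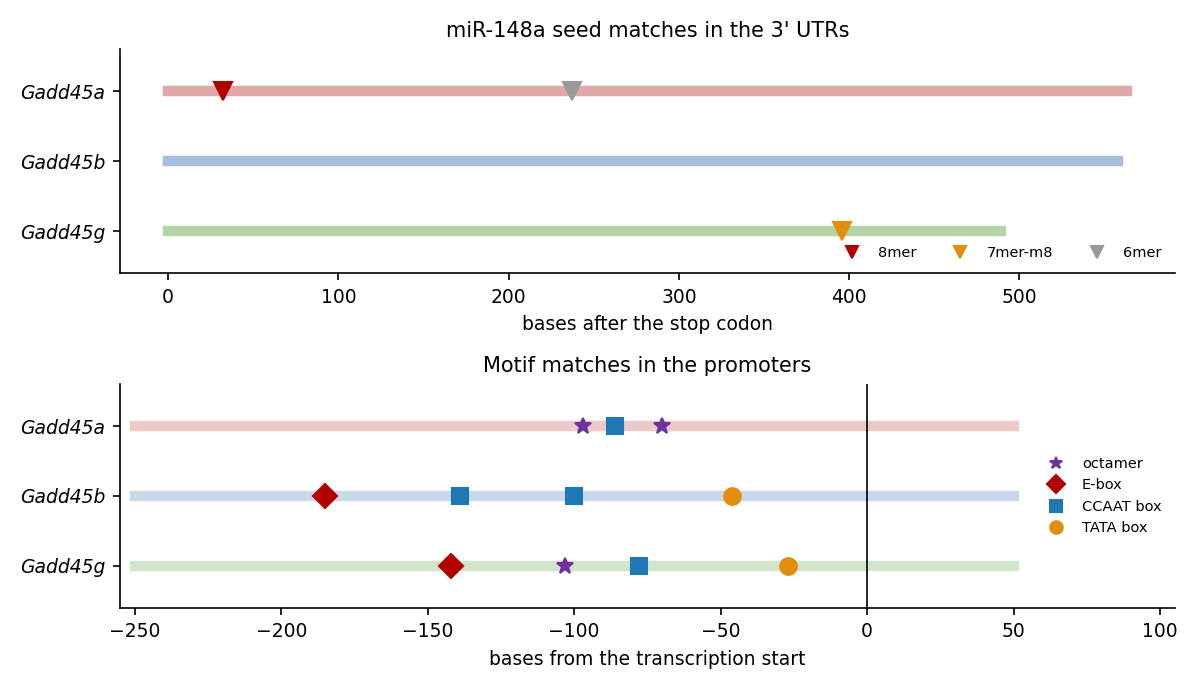
The upper panel maps miR-148a seed matches (triangles) along the 3' UTR of each member, in bases after the stop codon, and the lower panel maps promoter motif matches in bases from the transcription start (vertical line). Gadd45a has the only 8mer of the family, at base 32, Gadd45b has no seed match, and octamer matches occur in Gadd45a and Gadd45g.

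Library totals ran from 5810227 to 18660373 counts, the smallest being those of the stimulated libraries in run R137, and 3 counts, taken as the floor of detection, were worth 0.166 to 0.502 CPM. CPM is the count scaled to library size with TMM factors, and floors cover counting error only. Replicate 1 of each group came from the run the labels call R137 and replicate 2 from run R143. The labels do not say whether replicates were separate cultures, and p-values then speak of the spread among these libraries alone, which may be technical. The labelled cell type was checked on 8 B cell markers found in the table, each at 48.2 CPM or more in every library, with a summed level of 2027 to 2848 CPM. Markers of T cells, fibroblasts and erythroid cells summed to at most 1.0045, 0.615 and 2.12 CPM in any library. The miR-148a label could not be checked, since polyA libraries do not measure a mature microRNA and the Mir148a row held 1 count in 1 library and 0 in 7.

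Gadd45b was the most abundant member in every library. Per length of transcript, its mean over the 8 libraries was 29.6 CPM per kb, above 77.2% of the 10811 tested genes with a length. Gadd45g averaged 3.74 CPM per kb, above 27.2% of those genes, and Gadd45a 0.866 CPM per kb, above 10.9%. Summed over all libraries the 3 rows held 3326, 291 and 93 counts for Gadd45b, Gadd45g and Gadd45a. Precision therefore differed widely among the members, and Gadd45a rested on the fewest counts.

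**Figure D2:**
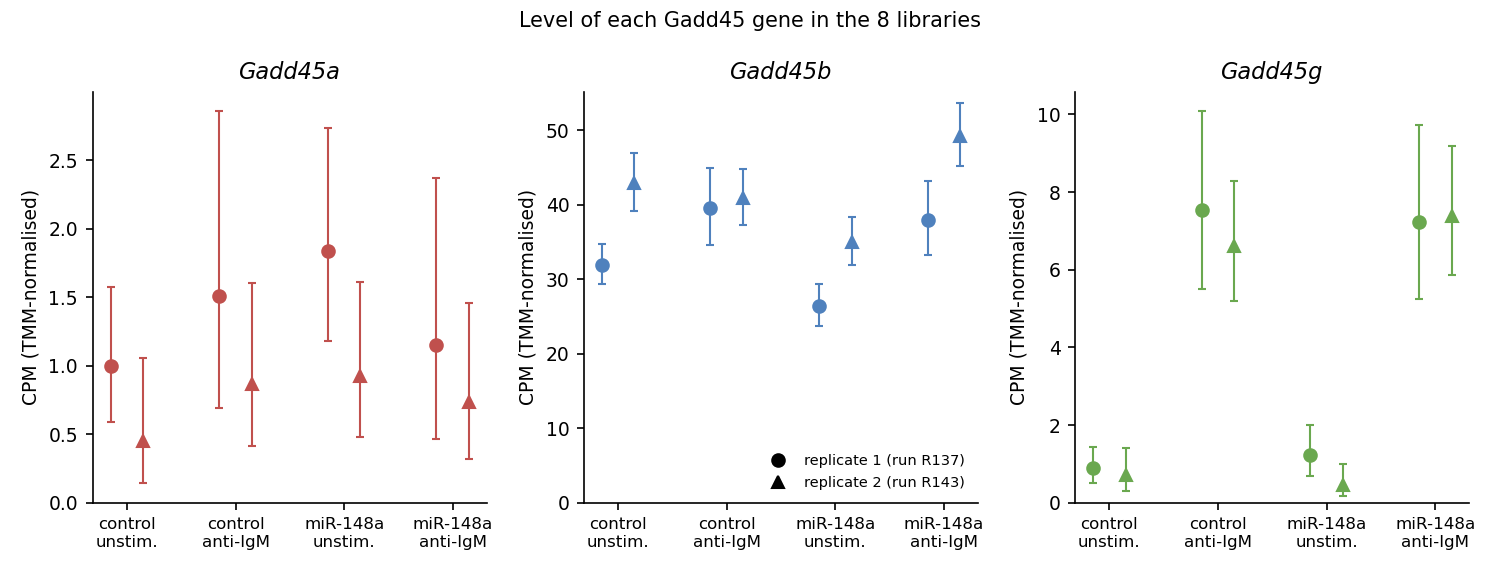
Each panel plots 1 gene's level in CPM (TMM-normalised, linear axis from 0) in each library by group. Circles are replicate 1 (run R137), triangles replicate 2 (run R143), and bars the exact 95% Poisson interval, which covers counting error only. Gadd45g separates anti-IgM from unstimulated libraries in both lines, and the points of Gadd45a overlap between groups in each line and in each condition.

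Gadd45g rose with anti-IgM in both lines. In the unstimulated control line it had 16 and 8 counts, 0.887 CPM in replicate 1 and 0.722 CPM in replicate 2. After anti-IgM the control line had 45 and 76 counts, 7.53 and 6.61 CPM. The lowest stimulated library was thus far above the highest unstimulated one, and the mean went from 0.804 ± 0.117 to 7.07 ± 0.654 CPM (SD, n = 2). In the unstimulated miR-148a line Gadd45g had 16 and 6 counts, 1.23 and 0.461 CPM. After anti-IgM that line had 44 and 80 counts, 7.24 and 7.38 CPM. Here too the groups did not overlap, with means of 0.844 ± 0.541 and 7.31 ± 0.103 CPM (SD, n = 2). The share of all tested genes whose groups do not overlap was not computed.

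The log2 fold change of Gadd45g was 3.09 ± 0.39 (SE) in the control line, 8.51-fold with a 95% interval of 4.64 to 15.6 (edgeR quasi-likelihood test, adjusted p = 0.00202). For the miR-148a line it was 3.10 ± 0.39, 8.57-fold with an interval of 4.66 to 15.8 (edgeR adjusted p = 0.000967). By size of rise it ranked 27 among 11291 tested genes in each line. Of the 3 members, Gadd45g alone was called in these comparisons. In the control line 17.0% of tested genes were called in either direction and 9.60% higher, and in the miR-148a line 28.7% and 14.7%. Averaged over both lines the change was 3.09 ± 0.27 (edgeR adjusted p = 9.16e-05), where 40.9% of tested genes were called, 21.0% higher and 19.9% lower. Within run R137 the differences of log2 CPM were 3.06 in the control line and 2.53 in the miR-148a line, and within run R143 they were 3.12 and 3.89. The call held in both lines with each of the 8 libraries left out in turn. In bulk RNA, more cells carrying the transcript and more transcript per cell cannot be told apart.

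Of 6 monocyte, macrophage and neutrophil markers in the table, 1 passed the filter, and their sum moved with Gadd45g. In the control line it was 0.388 to 0.722 CPM without stimulation and 3.85 to 6.26 CPM with it, and in the miR-148a line 0.461 to 0.690 and 8.55 to 10.2 CPM. Itgam, the 1 that passed, made up most of this, at most 8.86 CPM. Csf1r reached at most 1.29 CPM and Cd14 at most 0.164 CPM, and Lyz2, S100a8 and S100a9 had 0 counts in all 8 libraries. The 5 T cell markers in the table, none of which passed the filter, summed to 0.271 to 0.460 CPM in the unstimulated and 0.461 to 1.0045 CPM in the stimulated libraries. The part of these transcripts in the result was not tested.

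The lines did not differ detectably in Gadd45g. The difference of the miR-148a line from the control line was 0.05 ± 0.46 on the log2 scale without stimulation, with a 95% interval of -0.998 to 1.09 (edgeR adjusted p = 0.989). With anti-IgM it was 0.06 ± 0.33, with an interval of -0.68 to 0.79 (edgeR adjusted p = 0.956). The interval with anti-IgM spans 0.625 to 1.73 times the control level. The difference between the responses was 0.01 ± 0.59, with an interval of -1.33 to 1.35 (edgeR adjusted p = 0.9996). In order of level the groups were unstimulated control, unstimulated miR-148a, anti-IgM control and anti-IgM miR-148a, and only the step between the second and the third exceeded the spread.

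No comparison of Gadd45b between groups passed in the filtered fit of all 8 libraries without a block. With the replicate number as a block, its response in the miR-148a line and its averaged response passed, as given below. In the unstimulated control line Gadd45b was at 32.0 and 43.0 CPM in replicates 1 and 2, and after anti-IgM at 39.5 and 41.0 CPM. These groups overlapped, and the log2 fold change was 0.11 ± 0.19, with a 95% interval of -0.32 to 0.54 (edgeR adjusted p = 0.731). In the miR-148a line, Gadd45b was at 26.4 and 35.1 CPM unstimulated and 37.99 and 49.3 CPM after anti-IgM. These groups did not overlap, which groups of 2 libraries can do without a change. The mean went from 30.7 ± 6.09 to 43.6 ± 7.98 CPM (SD, n = 2). How many of all tested genes separate in this way was not computed.

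The log2 fold change of Gadd45b in the miR-148a line was 0.52 ± 0.19, 1.43-fold with an interval of 1.06 to 1.93. It did not pass (edgeR adjusted p = 0.0725). The libraries are paired by run, and with the replicate number as a block the change was 0.51 ± 0.11 and passed (edgeR adjusted p = 0.00152), where 22.8% of tested genes were called higher. It also passed with no filter on low counts (0.50, edgeR adjusted p = 0.0378) and without miR-148a anti-IgM replicate 1 (0.68, edgeR adjusted p = 0.0433). Within runs R137 and R143 the differences of log2 CPM were 0.52 and 0.49. Averaged over both lines the response was 0.31 ± 0.13 (edgeR adjusted p = 0.0919), and with the block 0.30 ± 0.08 (edgeR adjusted p = 0.00364), where 27.9% of tested genes were called higher. The averaged response passed too without unstimulated control replicate 2 (0.42, edgeR adjusted p = 0.0428) or miR-148a anti-IgM replicate 1 (0.39, edgeR adjusted p = 0.0486).

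Between the lines Gadd45b differed by -0.28 ± 0.19 without stimulation (interval -0.70 to 0.15, edgeR adjusted p = 0.661), where 0.487% of tested genes were called. With the block the interval was narrower, -0.50 to -0.057, and the difference did not pass (edgeR adjusted p = 0.127). With anti-IgM it differed by 0.13 ± 0.19 (interval -0.31 to 0.56, edgeR adjusted p = 0.792), where 2.52% were called, 1.36% higher and 1.16% lower. The difference between the responses of Gadd45b was 0.40 ± 0.27, with an interval of -0.21 to 1.01 (edgeR adjusted p = 0.9996), and with the block 0.41 ± 0.15, with an interval of 0.086 to 0.74 (edgeR adjusted p = 0.310). The responses of the 2 lines are therefore not shown to differ. The order of the groups was unstimulated miR-148a, unstimulated control, anti-IgM control and anti-IgM miR-148a, and the libraries of each neighbouring pair in that order overlapped.

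Gadd45a, the proposed target, was measured with 5 to 24 counts per library. The unstimulated control libraries had 18 and 5 counts, 0.998 and 0.451 CPM. The unstimulated miR-148a libraries had 24 and 12 counts, 1.84 and 0.922 CPM, so the groups overlapped. The estimate for the line named for the microRNA was above the control. Its difference from the control line was 0.85 ± 0.55 on the log2 scale, with a 95% interval of -0.40 to 2.11 (edgeR adjusted p = 0.639). The point estimate was positive in both runs, 0.87 and 0.95, and with the block it was 0.90 ± 0.40, with an interval of 0.053 to 1.75, and did not pass (edgeR adjusted p = 0.198). It ran from 0.28 without unstimulated miR-148a replicate 1 to 1.59 without unstimulated control replicate 1.

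After anti-IgM the control libraries had 9 and 10 counts of Gadd45a, 1.51 and 0.870 CPM. The miR-148a libraries had 7 and 8 counts, 1.15 and 0.738 CPM. These groups overlapped too, and the difference was -0.31 ± 0.64, with an interval of -1.76 to 1.13 (edgeR adjusted p = 0.853). On the linear scale that interval runs from 0.296 to 2.19 times the control level, so no difference was detectable at this depth. The sign of this difference turned without control anti-IgM replicate 1 (0.061) or miR-148a anti-IgM replicate 2 (0.023). Averaged over both conditions the line difference was 0.27 ± 0.42, with an interval of -0.69 to 1.23 (edgeR adjusted p = 0.761), where 6.31% of tested genes were called, 3.37% higher and 2.93% lower. It was -0.017 without unstimulated miR-148a replicate 1.

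The response of Gadd45a to anti-IgM was 0.57 ± 0.60 in the control line (edgeR adjusted p = 0.565). For the miR-148a line it was -0.60 ± 0.59 (edgeR adjusted p = 0.488). Their difference was -1.17 ± 0.85, with an interval of -3.08 to 0.74 (edgeR adjusted p = 0.9996). With the block the responses were 0.71 ± 0.46 and -0.50 ± 0.44 in the control and miR-148a lines. Their difference was then -1.21 ± 0.63, with an interval of -2.56 to 0.14. None of these passed (edgeR adjusted p = 0.256, 0.374 and 0.483). No gene was called for this difference by edgeR (0%), 484 of 11291 had an unadjusted p under 0.05, DESeq2 called 1 and the fit with the block 11. Within runs the difference for Gadd45a was -1.24 and -1.17. With 1 library left out, the control line's response of Gadd45a ran from 0.17 to 1.30, that of the miR-148a line from -1.01 to -0.023 and their difference from -1.90 to -0.60. The extremes of the control line came without unstimulated control replicates 2 and 1, and those of the miR-148a line without unstimulated miR-148a replicates 2 and 1. The difference was farthest from 0 without unstimulated control replicate 1 and nearest to it without unstimulated miR-148a replicate 1. By mean level the groups ran from unstimulated control (0.724 CPM) through anti-IgM miR-148a (0.945 CPM) and anti-IgM control (1.19 CPM) to unstimulated miR-148a (1.38 CPM), and the libraries of each neighbouring pair overlapped. The long antisense gene E230016M11Rik overlaps the Gadd45a locus, and how the counting treated strand is not given. The antisense row had no count of 1 or more in any of the 8 libraries. That does not show to which gene reads in the overlap were given.

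**Figure D3:**
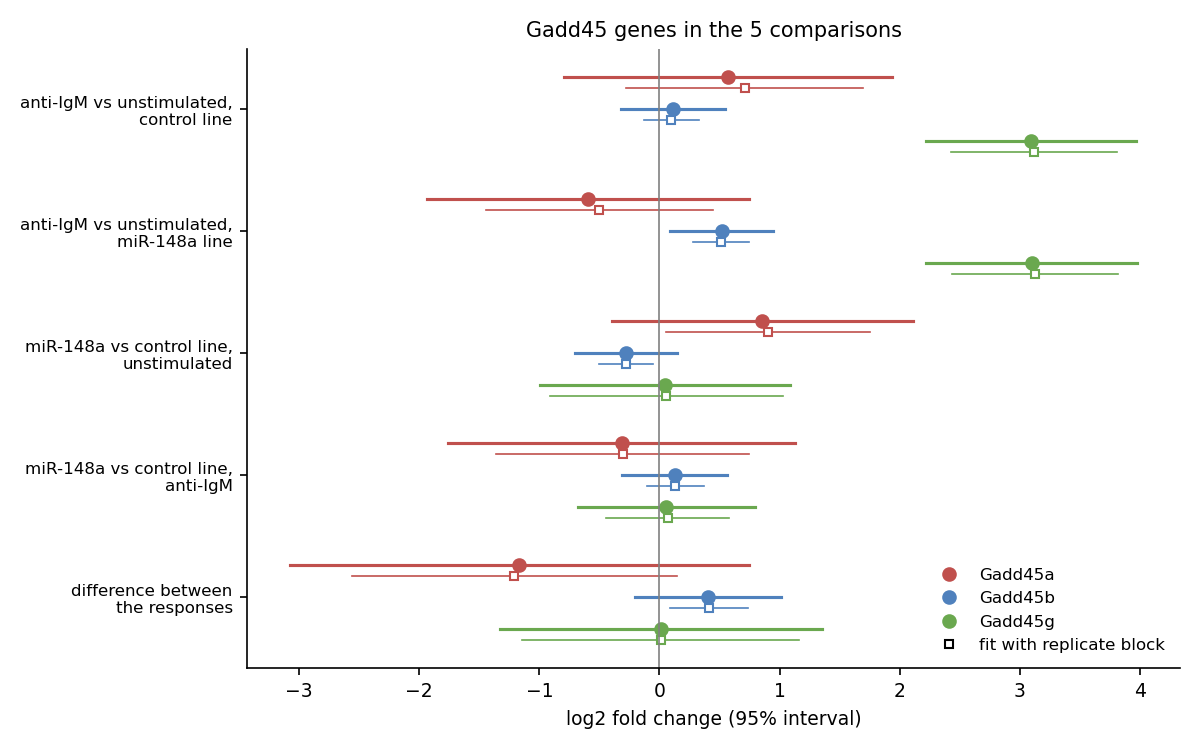
Points are log2 fold changes of each member in the 5 comparisons (rows) with 95% intervals as lines, filled circles from the fit without a block and open squares from the fit with the replicate number as a block. Gadd45g lies near 3.09 and 3.10 in the anti-IgM rows and near 0 in the rows that compare lines, and in the fit without a block the interval of Gadd45a is the widest in each row.

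The runs also differed for single members. In all 4 groups Gadd45a was higher in run R137 than in run R143, and in all 4 groups Gadd45b was higher in run R143. In the fit with the block, a test made after these values were seen, run R143 differed from run R137 by 0.32 ± 0.08 for Gadd45b (edgeR adjusted p = 0.00946), where 18.8% of tested genes were called in either direction. For Gadd45a the run difference was -0.90 ± 0.31 (edgeR adjusted p = 0.0605) and for Gadd45g -0.23 ± 0.21 (edgeR adjusted p = 0.482).

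The make-up of the family differed between stimulated and unstimulated libraries. Levels per length were summed in each library, and Gadd45g made up 3.12% and 1.95% of the family sum in the control line's replicates 1 and 2 without stimulation and 18.0% and 15.9% with it. In the miR-148a line its share was 4.93% and 1.51% at rest and 18.1% and 15.03% after stimulation. The share of Gadd45g did not overlap between unstimulated and stimulated libraries in either line. Gadd45b still made up 78.8% to 83.7% of the sum after anti-IgM. The log2 ratio of Gadd45g to Gadd45b per length went from -5.27 ± 0.51 to -2.25 ± 0.17 in the control line and from -5.08 ± 1.29 to -2.30 ± 0.24 in the miR-148a line (SD, n = 2). The sum itself was 23.2 to 34.5 CPM per kb in the 4 unstimulated and 37.3 to 45.9 CPM per kb in the 4 stimulated libraries. These shares and sums restate the members' levels and were not tested.

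**Figure D4:**
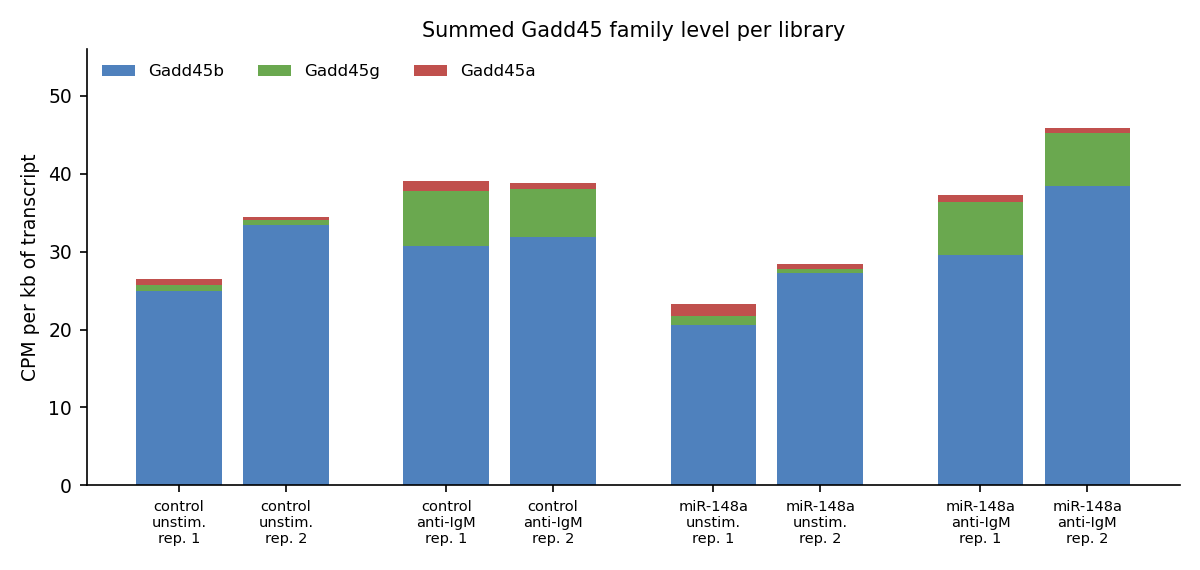
Each bar is 1 library and stacks the level of the members in CPM per kb of transcript from 0, grouped by line and condition. Gadd45b fills most of every bar, and the Gadd45g segment is 15.03% to 18.1% of the bar in the stimulated libraries against 1.51% to 4.93% in the others.

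Across the 8 libraries the members did not follow each other. Pearson's r of log2 CPM was -0.68 between Gadd45a and Gadd45b, 0.51 between Gadd45b and Gadd45g, and 0.20 between Gadd45a and Gadd45g, as a description over 8 libraries that share runs and depth. The genes most like Gadd45g over the same libraries, among 9764 compared, were Gstt2, a glutathione transferase (r = 0.993), Dnajc14 (0.990), H2-Oa, an MHC class II chaperone subunit (0.989), Tbc1d10b (0.984) and Orai2, a calcium channel subunit (0.981). In all, 549 genes had an r over 0.9 with Gadd45g. The rise of Gstt2 was 1.08 and 1.10 on the log2 scale in the control and miR-148a lines, smaller than that of Gadd45g. The genes most like Gadd45b were Inpp5d, the phosphatase SHIP1 (r = 0.971), Itprip (0.968), Ticam1, the adaptor TRIF (0.966), Arid3a (0.952) and Hip1 (0.946), and 37 genes exceeded 0.9. The genes most like Gadd45a were Zfp59 (0.959), Med31 (0.944), Zkscan3 (0.926), Vps26a (0.922) and Slc25a36 (0.916), and 10 exceeded 0.9. None of those named for Gadd45a or Gadd45b was called for the response to anti-IgM in either line, nor was H2-Oa in the control line. The profile of Gadd45a rests on 5 to 24 counts per library. How many genes would exceed 0.9 by chance over 8 libraries was not computed for any member.

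Among the kinases of the p38 and JNK cascades, 4 of 10 tested genes rose with anti-IgM in the control line, where 9.60% of all tested genes rose. Their median log2 fold change was 0.17, against 0.01 over all genes. Mapk12, p38 gamma, was at 0.94 ± 0.19 (edgeR adjusted p = 0.0127), Mapk11, p38 beta, at 0.73 ± 0.12 (edgeR adjusted p = 0.00584), and Map3k4, the kinase that GADD45 proteins activate, at 0.50 ± 0.15 (edgeR adjusted p = 0.0483). In the miR-148a line 1 rose and 1 fell, Mapk11 (0.52 ± 0.12, edgeR adjusted p = 0.0120) and Mapk8, JNK1 (-0.62 ± 0.14, edgeR adjusted p = 0.0105), with a median of 0.12. Leaving out 1 library gave 0 to 2 higher in the control line, and 0 to 1 higher and 0 to 2 lower in the miR-148a line, and Map3k4 lost its call without any one of the 8, with 0.31 without control anti-IgM replicate 2. In the control line 2 were called higher with RLE factors, with no filter, with DESeq2 and in the 4 libraries of the comparison alone. Map3k4 was not called under those settings. The block gave 4 higher and 2 lower, where 17.6% of all tested genes rose and 1940 of 11291 fell. Map2k7, named for its role as the partner of GADD45 beta, was at 0.00 ± 0.10 and 0.14 ± 0.10 in the lines and was not called.

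Of 7 tested genes whose proteins bind GADD45 proteins in the cell cycle or in growth control, 2 rose in the control line and 4 in the miR-148a line, where 9.60% and 14.7% of all tested genes rose, and none fell. Cdkn1a, which encodes p21, went from 38.6 ± 7.82 to 98.6 ± 29.9 CPM in the control line and from 48.8 ± 15.7 to 118 ± 20.1 CPM in the miR-148a line (SD, n = 2). Its log2 fold changes were 1.33 ± 0.27 (edgeR adjusted p = 0.0123) and 1.26 ± 0.27 (edgeR adjusted p = 0.00795). The mitotic kinase Aurka was at 0.47 ± 0.13 and 0.58 ± 0.13 (edgeR adjusted p = 0.0357 and 0.00924), and Ccnb2, a cyclin B, rose in the miR-148a line by 0.48 ± 0.15 (edgeR adjusted p = 0.0399). The list's medians were 0.23 and 0.39, against 0.01 and 0.00 over all genes. The list's counts changed with 1 library left out. Aurka then ran from 0.37 to 0.56 in the control line and from 0.43 to 0.71 in the miR-148a line. Ccnb2 ran from 0.34 to 0.62 in the miR-148a line. Neither gene's calls held in each of these fits, nor did that of Cdkn1a in the control line. With the block 4 were called higher in the control line, where 17.6% of all tested genes rose.

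Of 8 tested genes proposed to act with GADD45 proteins in DNA demethylation, 1 rose in the control line, and 1 rose and 1 fell in the miR-148a line, with medians of 0.10 and 0.088. These counts are near the shares over all tested genes, of which 9.60% and 14.7% rose in the lines and 14.0% fell in the miR-148a line. Apobec2, the gene that rose, was at 0.70 ± 0.14 (edgeR adjusted p = 0.0110) and 1.08 ± 0.14 (edgeR adjusted p = 0.00106). Tet1, a 5-methylcytosine oxidase, was at -1.23 ± 0.37 in the miR-148a line (edgeR adjusted p = 0.0339), and DESeq2 did not call it. The counts of higher genes changed with 1 library left out. With the block they were 3 in each line, where 17.6% and 22.8% of all tested genes rose in the control and miR-148a lines.

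Among factors reported to act on Gadd45 genes, 4 of 14 tested rose and 3 fell in the control line, and 4 rose and 5 fell in the miR-148a line. Of all tested genes, 9.60% rose and 7.45% fell in the control line, and 14.7% and 14.0% in the miR-148a line. Smad3, a mediator of TGF-beta signalling, rose by 1.99 ± 0.25 and 0.98 ± 0.23 (edgeR adjusted p = 0.00208 and 0.0126). Its value for the miR-148a line was 0.57 without miR-148a anti-IgM replicate 2 and then not called (edgeR adjusted p = 0.140). Smad2 was at -0.22 ± 0.10 and -0.51 ± 0.10 (edgeR adjusted p = 0.177 and 0.00665). Smad4 was at -0.04 ± 0.10 and -0.07 ± 0.10 and was not called in either line. Foxo1, an activator of Gadd45a, rose by 0.89 ± 0.13 and 0.65 ± 0.13 (edgeR adjusted p = 0.00373 and 0.00714). Myc was at 277 ± 27.4 CPM unstimulated and 96.4 ± 57.9 CPM with anti-IgM in the control line, and at 325 ± 14.3 and 76.9 ± 1.73 CPM in the miR-148a line (SD, n = 2). Its log2 fold changes were -1.50 ± 0.31 (edgeR adjusted p = 0.0141) and -2.08 ± 0.32 (edgeR adjusted p = 0.00208), and the first was -2.32 without control anti-IgM replicate 2 and -1.01 without its replicate 1. Atf4, a stress response factor, was at -0.77 ± 0.14 and -1.02 ± 0.14 (edgeR adjusted p = 0.00788 and 0.00130). The list's counts changed in both lines with 1 library left out. The block gave 6 higher in the control line, where 17.6% of all tested genes rose. Stat3 rose by 0.89 ± 0.12 and 0.94 ± 0.12 (edgeR adjusted p = 0.00250 and 0.000997). Nfkb1, a subunit of the NF-kB that drives Gadd45b, fell by 0.39 ± 0.11 and 0.50 ± 0.11 (edgeR adjusted p = 0.0444 and 0.0112). Rela, another NF-kB subunit, was at 0.21 ± 0.11 and 0.05 ± 0.11 and was not called (edgeR adjusted p = 0.231 and 0.772). Nfkb1 and Rela were picked out for their roles after their values were seen. Trp53, which encodes p53, was picked likewise and was at -0.38 ± 0.12 (edgeR adjusted p = 0.0572) and -0.72 ± 0.12 (edgeR adjusted p = 0.00255). Egr1 and Cebpa did not pass the filter.

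Among other growth arrest and DNA damage genes, 3 of 6 tested rose in each line and none fell, where 9.60% and 14.7% of all tested genes rose. The medians were 0.46 and 0.47, against 0.01 and 0.00 over all genes. Ddit4, an inhibitor of mTORC1, rose by 1.04 ± 0.18 and 1.65 ± 0.18 (edgeR adjusted p = 0.00699 and 0.000688), and Btg2, an antiproliferative gene, by 0.73 ± 0.13 and 0.98 ± 0.13 (edgeR adjusted p = 0.00803 and 0.00117). Cdkn1a, which is also in this list, was the third. The other tested genes were not called. Leaving out 1 library gave 0 to 3 in the control line and 3 in each case in the miR-148a line.

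Between the lines, few genes of these lists were called. With anti-IgM, Btg2 was higher in the miR-148a line by 0.62 ± 0.13 (edgeR adjusted p = 0.0446), where 1.36% of tested genes were called higher, and lost this call without 6 of the 8 libraries. Averaged over both conditions Btg2 was higher by 0.50 ± 0.09 (edgeR adjusted p = 0.0169) and Smad3 by 0.73 ± 0.17 (edgeR adjusted p = 0.0393), where 3.37% were called higher. Leaving out any 1 of 4 libraries ended this call for Btg2, and any 1 of 7 for Smad3. Calls named above for the responses to anti-IgM were also lost when single libraries were left out, most often a library of the same line. Within 1 line or 1 condition, fewer of all tested genes were called as well when a library of the compared groups was left out. For the averaged line difference the number fell without most libraries but not without every one. These losses therefore need not be particular to the named genes.

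**Figure D5:**
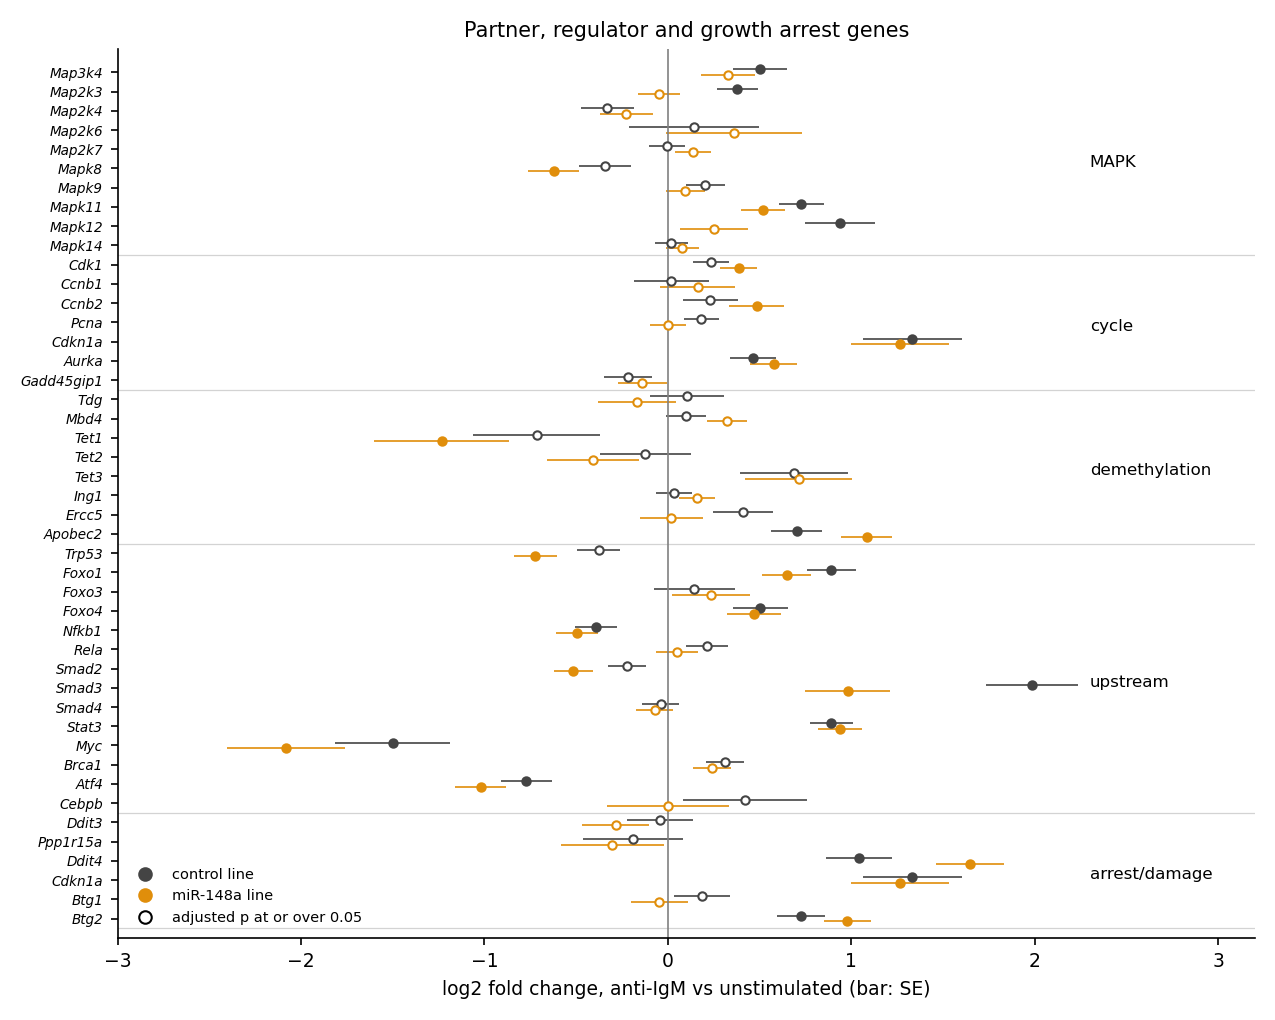
Log2 fold changes of anti-IgM against unstimulated (bars are SE) for the tested genes of the 5 lists, in the control line (dark) and the miR-148a line (orange), with filled points at an adjusted p under 0.05. Cdkn1a, Ddit4, Btg2 and Smad3 lie to the right and Myc to the left in both lines.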

How the data were processed

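The authors deposited 1 table of expected counts per gene symbol for 8 libraries, which need not be whole (9.54% to 12.8% of values per library differed from a whole number, tolerance 0) and are not normalised. Trizol RNA was polyA-selected and made into libraries with a directional kit, per the labels. The submitters' processing notes name Partek 6.15.0730, TopHat2 2.0.13, Bowtie2, edgeR, cutadapt and CASAVA 1.8, and the builds mm10 and GRCm38. The annotation, like the strand setting, is not given in the sources used here. Of 24081 rows, 27 bear calendar dates in place of symbols (0.213% to 0.235% of counts) and were left out.

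Counts were rounded and tested with edgeR 4.0.16 in R 4.3.3 (filterByExpr by group, TMM factors, quasi-likelihood F test, 4 group means, 4 residual degrees of freedom, Benjamini-Hochberg over 11291 genes, threshold 0.05). A value after ± is the SE of a log2 fold change unless SD is named. Intervals of 95% use the test's own standard error and degrees of freedom. The script was tested on simulated data. Alternatives used DESeq2 1.42.0, limma 3.58.1 (voom), RLE factors, other filters, unrounded counts, fewer libraries and the replicate number as a block. Same-numbered libraries share a run in the labels, and their deviations from group means correlated in all 6 pairs of groups (r 0.495 to 0.569 across genes), so the numbers pair the libraries. Replicates differed by more than sampling noise (mean chi-square per gene 9.78 to 14.0). Lengths are those of the longest coding transcript in GENCODE M21.

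The members, the 5 gene lists and the tests were chosen with earlier results of these data known. Named list genes were up to 3 called members with the largest change per list and comparison. Map2k7, Nfkb1, Rela and Trp53 were added for their roles, and Smad2 and Smad4 to stand beside Smad3. Foxo1, Atf4 and Stat3 are given in both lines. Uncalled list genes are not named for the line differences. Genes most like a member were the 5 with the highest Pearson correlation of log2 CPM (prior count 2) over 8 libraries, among genes averaging 1 or more in log2 CPM and without unnamed predicted genes. Of the DNA demethylation list, 1 gene is not reported here and was left out of that list's counts and median.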

Additional observations from a re-analysis of the deposited data

How the results depend on the processing

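The rise of Gadd45g kept its direction and its call under all settings tried, with log2 fold changes of 3.03 to 3.12 in the control line and 3.08 to 3.22 in the miR-148a line, and of 2.96 to 3.26 and 2.56 to 3.95 with 1 library left out. Gadd45b in the miR-148a line passed with no filter (0.50, edgeR adjusted p = 0.0378) and with the replicate block (0.51), and its mean response passed with the block (0.30). The replicate block changed no other call of a member. With limma voom Gadd45g was at -0.10 for the unstimulated and -0.0083 for the mean line difference. The mean response of Gadd45a, -0.01 as reported, was 0.10 with the replicate block and 0.027 with limma voom and 0.029 with DESeq2.

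With 1 library left out, Gadd45b ran from -0.095 to 0.33 in the control line's response, from 0.30 to 0.73 in the miR-148a line's and from 0.21 to 0.42 in their mean. For the unstimulated line difference Gadd45g ran from -0.81 to 0.58. For the anti-IgM line difference the ranges were -0.72 to 0.061 for Gadd45a, -0.086 to 0.29 for Gadd45b and -0.044 to 0.14 for Gadd45g. For the mean line difference they were -0.017 to 0.64, -0.19 to 0.028 and -0.38 to 0.32. Gadd45g ran from -0.52 to 0.87 for the difference between responses, and Gadd45a from -0.22 to 0.35 for the mean response. None of these passed except the Gadd45b calls named.

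Called genes numbered 1925 and 3238 for the responses of the control and miR-148a lines, 55 and 284 for the unstimulated and anti-IgM line differences and 712 for the mean line difference. With the block they numbered 3929, 5205, 823, 1822 and 2513. With 1 library left out they ran from 540 to 2082, 1481 to 3155, 0 to 76, 0 to 222 and 236 to 742. The unstimulated line difference had 179 without a filter and 159 with DESeq2, and the anti-IgM one 450 without a filter and 16 in its 4 libraries alone. Gadd45a gave no value for the anti-IgM line difference where only those 4 libraries were fitted, since it did not pass the filter there. Depth limits Gadd45a, which had at most 24 counts in a library.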
